A study of Rattus norvegicus with 8 samples.

Results

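The genes described here build, fold and ship the proteins that enter the secretory pathway through the endoplasmic reticulum. They were taken by name from the probe annotation: genes whose annotated symbol starts with Pdia, Sec11, Sec13, Sec22, Sec23, Sec24, Sec31, Sec61, Sec62, Sec63, Ssr, Spcs, Tmed, Edem or Alg with a number, and the single genes P4hb, Ddost, Rpn1, Rpn2, Stt3a, Stt3b, Canx, Calr, Herpud1, Sel1l, Xbp1, Atf6, Ern1, Manf, Creld2, Hyou1 and Sdf2l1. This gave 60 genes of 13337 named on the array, read by 62 of its 22523 probes. Of these names, Ern1 and Stt3b were not analysed here, nor was any gene starting with Spcs. The prefix Ssr also takes in Ssrp1, a histone chaperone of the nucleus that belongs to no step of the pathway; it is kept in the counts and named where it matters.

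RNA came from thigh skeletal muscle of Wistar Han rats. One group of 4 rats ate a diet holding 150 ppm of the sulfonyl isoxazoline called SI compound 197 for 28 days, and the other group of 4 rats ate standard chow over the same 28 days. No transgene, deletion or second agent is named for either group, and no age or sex of the rats was used here. The study addressed mitochondrial toxicity of such compounds in muscle, with 1 dose and 1 time point in these arrays, and each rat gave 1 array.

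The endoplasmic reticulum takes in new secreted and membrane proteins through the Sec61 channel while the ribosome makes them. Signal peptidase then cuts off the leader, the oligosaccharyl transferase adds a sugar tree assembled by the Alg enzymes, and disulfide isomerases and the lectins calnexin and calreticulin help the chain to fold. Folded cargo leaves in vesicles coated by Sec23, Sec24, Sec13 and Sec31, misfolded chains are sent for degradation, and the sensors Atf6, Ern1 and the kinase Eif2ak3 raise folding genes when misfolded protein accumulates. In muscle fibres the same membrane system is specialised as the sarcoplasmic reticulum, which stores calcium.

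Promoter sequences are shown for the members whose windows hold the letters of a folding-stress element. The endoplasmic reticulum stress element, ERSE, reads CCAAT, 9 bases of any kind, then CCACG, and is a binding site for Atf6 with the factor NF-Y; ERSE-II reads ATTGG, 1 base of any kind, then CCACG. Both strands of the 300 bases from 250 before to 50 after each RefSeq gene start (assembly GRCr8) were searched, and 53 of the 60 member genes had such a window. ERSE letters were found in 4 member genes, Calr, Canx, Creld2 and Xbp1, and in 0.0657% of all 33469 windows. ERSE-II letters were found in Herpud1 and, at 2 places, in Hyou1, and in 0.0508% of all windows. ERSE and ERSE-II can share CCACG letters, but no member window held both. The stretches run 5′ to 3′ on the gene's strand, and capitals mark the ERSE or ERSE-II letters, which read as their reverse complement where they lie on the opposite strand.
Calr, chr19:40213117-40213173, plus strand: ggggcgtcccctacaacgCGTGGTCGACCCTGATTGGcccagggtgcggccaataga
Canx, chr10:35158049-35158107, minus strand: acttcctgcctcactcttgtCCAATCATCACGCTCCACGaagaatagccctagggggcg
Creld2, chr7:121789219-121789277, plus strand: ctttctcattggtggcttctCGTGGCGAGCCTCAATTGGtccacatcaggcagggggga
Xbp1, chr14:84604538-84604596, plus strand: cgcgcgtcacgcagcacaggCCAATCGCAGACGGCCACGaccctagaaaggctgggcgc
Herpud1, chr19:10614801-10614851, minus strand: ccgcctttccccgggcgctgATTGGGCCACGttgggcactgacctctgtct
Hyou1, chr8:53602674-53602824, plus strand: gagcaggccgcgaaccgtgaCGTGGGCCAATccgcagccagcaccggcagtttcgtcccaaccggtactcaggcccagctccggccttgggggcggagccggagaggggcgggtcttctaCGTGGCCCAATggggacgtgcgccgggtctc

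For comparison, the 250 bases before the start are shown for Ssr3 and Rpn1, the members with the largest rises among those that have a window. Neither holds ERSE or ERSE-II letters within its 300-base window. Capitals mark the separate partial motifs CCAAT and CCACG, on either strand, which are common letters: CCAAT is in 37.5% and CCACG in 31.6% of all windows.
Ssr3, chr2:151935163-151935412, minus strand: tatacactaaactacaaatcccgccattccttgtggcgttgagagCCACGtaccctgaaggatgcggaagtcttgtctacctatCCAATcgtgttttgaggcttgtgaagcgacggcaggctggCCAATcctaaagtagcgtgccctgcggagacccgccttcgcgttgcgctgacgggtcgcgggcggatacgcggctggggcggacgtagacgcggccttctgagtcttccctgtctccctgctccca
Rpn1, chr4:122100726-122100975, plus strand: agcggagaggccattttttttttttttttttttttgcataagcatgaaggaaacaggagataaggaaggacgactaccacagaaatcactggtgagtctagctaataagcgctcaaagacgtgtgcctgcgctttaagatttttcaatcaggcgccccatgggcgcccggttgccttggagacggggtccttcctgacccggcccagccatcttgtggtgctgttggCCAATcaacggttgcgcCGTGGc

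Gene expression was read as log2 intensity after background correction and quantile normalization. A probe counted as above background on an array when its detection p was under 0.05, and it was tested when that held on at least 4 of the 8 arrays. Of the 62 member probes, 52 passed, standing for 51 genes, among 9873 probes tested in all. On all 8 arrays 46 member probes were above background, 8 were above it on none, and 8 on some. All but Alg6 and Tmed3 were read by 1 probe each, so nearly every gene result below rests on a single probe.

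Arrays of the compound 197 group detected more probes on average, among the members and over the whole array. The member probes above background numbered 49, 51, 49 and 47 on the control arrays and 52, 52, 53 and 52 on the compound 197 arrays. The mean difference was 3.25 probes (two-sided exact permutation test, p = 0.0286, as small as 8 arrays in groups of 4 can give). Over the whole array the number above background ran from 8310 to 10498 and was also higher with the compound, by 1121 probes on average (exact permutation p = 0.0286), and the lowest raw signal was 59.3 to 61.6 on control arrays against 51.1 to 55.5 on compound 197 arrays. Correlations of log2 levels between arrays were 0.960 to 0.987 within groups and 0.889 to 0.930 between groups. The part of these array-wide differences in the changes below was not tested.

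Among the members, 6 genes rose with compound 197: Ssr3 and Pdia3 by 8-fold or more, Rpn1 and P4hb about 2-fold, Sec13 and Sec11c by less. Among 52 tested member probes, 6 rose (11.5%), 20 fell (38.5%) and 26 did not pass the test, and over all probes 16.3% rose and 24.1% fell, 40.5% in all (limma, adjusted p under 0.05, Benjamini-Hochberg over all 9873 probes). The 6 rises passed under each of 4 scalings of the arrays, a result that 14.1% of all probes gave. Of the 6, Pdia3 met the detection filter only through its compound 197 arrays. Of the 20 falls, 1 (Sec22a) passed under all 4 scalings, against 1.89% of all probes. Leaving out single arrays also lowered the number of falls, among the members and over all probes. Without control replicate 1, 2, 3 or 4, 15, 11, 16 and 14 member falls passed, and without compound 197 replicate 1, 2, 3 or 4, 12, 12, 13 and 11. Over all probes the falls numbered 2016, 2251, 2113 and 2136, then 1615, 1792, 1719 and 1531, against 2382 with every array. The median change of the tested members was -0.20 on the log2 scale and that of all tested probes was -0.18, so the members as a group lay 0.02 below the rest.

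The scaling matters because it sets where 0 lies. The median change of all tested probes was -0.18 with quantile normalization, -0.20 with arrays scaled to the median of the probes above background on all arrays, -0.01 with cyclic loess, and 0.31 with arrays scaled to the median of all probes. Measured from the median of all probes tested, 7 members rose (background 19.7%) and 3 fell (background 8.37%). The 7 were the 6 above and Sec23a, and the 3 were Sec22a, Sec61a2 and Alg11. With scaling to the median of all probes 9 members rose (background 23.2%) and 1 fell (1.91%), and 15 of the 20 falls lay above 0, none of them past the test. With cyclic loess 8 rose (19.4%) and 4 fell (8.02%), and with scaling to the probes detected on all arrays 6 rose (14.9%) and 11 fell (17.1%), all 20 falls staying below 0 in both. Counting only falls of at least 1.5-fold left 5 members (background 9.7%). The arrays of the 2 groups did not overlap for 6 members above (background 16.2%) and 19 below (background 23.8%).

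**Figure D1:**
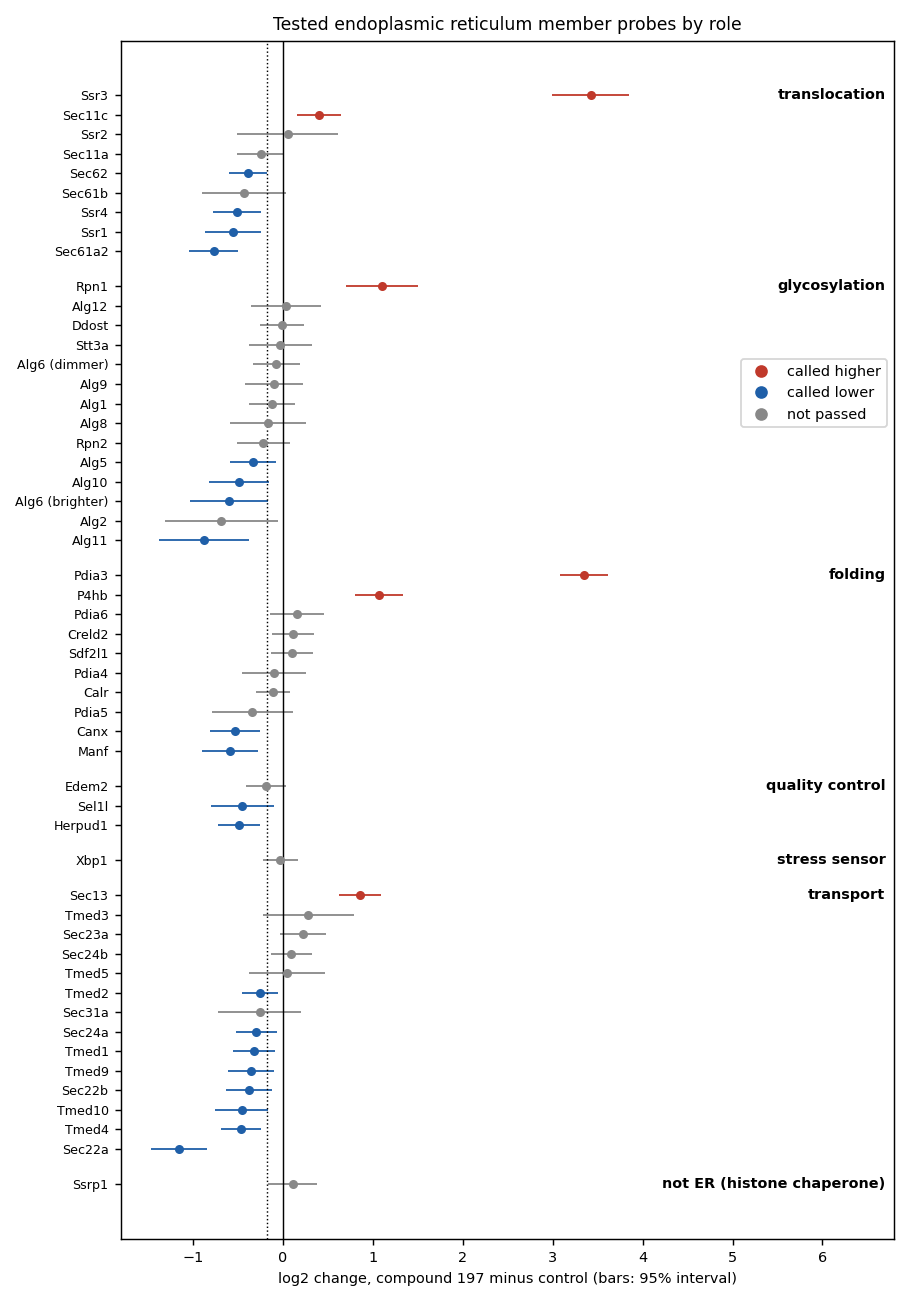
Log2 change, compound 197 minus control, of the 52 tested member probes in the order of their roles; points are fitted changes and bars 95% intervals, red called higher, blue called lower, grey not passed, and the dotted line is the median change of all tested probes (-0.18). Ssr3 (3.42) and Pdia3, whose position is only a fitted value because its controls were not above background, lie far to the right, Rpn1, P4hb and Sec13 lie near 1, and most of the 20 blue points lie between 0 and -0.77.

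Translocation and signal peptide handling included the rise of Ssr3. Of 9 tested probes 2 rose, 4 fell and 3 did not pass (over all probes 16.3% rose and 24.1% fell, the shares to set beside the count of each role), and 3 of the 4 falls lay above 0 with scaling to the median of all probes. Ssr3, the gamma subunit of the translocon-associated protein (TRAP) complex that sits beside the Sec61 channel, read 7.45, 7.83, 7.10 and 8.02 on the control arrays and 10.88, 11.10, 11.04 and 11.06 on the compound 197 arrays. The groups were far apart, and the compound 197 arrays lay closer together (SD 0.10) than the controls (SD 0.41). Raw intensities, before any correction, were 181 to 323 in controls and 2191 to 2577 with the compound. The fitted change was 3.42 ± 0.19 (SE), or 10.7-fold (adjusted p = 1.07e-06), and it was called in all 8 fits that left out 1 array.

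The other TRAP subunits gave changes near or below 0. Ssr1, the alpha subunit, changed by -0.56 (adjusted p = 0.0121) and passed the test as lower, with arrays at 10.02 to 10.24 in controls and 9.33 to 9.85 with the compound. Ssr4, the delta subunit, read 10.86, 10.95, 10.66 and 10.57 in controls and 10.27, 10.39, 10.12 and 10.21 with the compound, a change of -0.51 ± 0.12 (adjusted p = 0.00819). All compound 197 arrays of both subunits lay below all control arrays, but with scaling to the median of all probes their changes were 0.01 and 0.06. Ssr2, the beta subunit, gave 0.05 (95% interval -0.52 to 0.62) and did not pass. The difference within each array between Ssr3 and the mean of the other 3 subunits, which no scaling factor per array can move, shifted by 3.76 from control to compound 197, with no overlap of the arrays. This contrast and the other within-array contrasts below were picked after the values were seen and carry no test. Background correction can still move them. Without it, Ssr3 changed by 3.00, Ssr1 by -0.52, Ssr2 by 0.04 and Ssr4 by -0.49.

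The channel itself was read through Sec61a2 and Sec61b. Sec61a2, a form of the pore-forming alpha subunit, read 10.001, 10.410, 10.101 and 10.192 in controls and 9.475, 9.445, 9.494 and 9.210 with the compound. All 4 compound 197 arrays lay below the lowest control, and the change was -0.77 ± 0.12 (adjusted p = 0.0012), or 1.71-fold lower. It kept its call in all 8 leave-one-out fits and relative to the median change (-0.59, adjusted p = 0.00534), while scaling to the median of all probes gave -0.20. Sec61b, the beta subunit, changed by -0.43 and did not pass. Sec61a1, the main alpha subunit in most tissues, was above background on no array, and Sec61g, the gamma subunit, on 0 control and 2 compound 197 arrays, so neither was tested.

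Sec62, which with Sec63 helps short chains to enter after synthesis, read 10.54, 10.54, 10.55 and 10.48 in controls and 10.10, 10.06, 10.31 and 10.08 with the compound. The controls were almost level and every compound 197 array was lower (change -0.39 ± 0.09, adjusted p = 0.0109), yet the change was 0.19 with scaling to the median of all probes. Sec63 was above background on 2 control and 1 compound 197 arrays and was not tested. Signal peptidase showed the catalytic subunits apart: Sec11c read 10.48, 10.81, 10.49 and 10.67 in controls and 11.04, 11.03, 10.90 and 11.07 with the compound. The groups did not overlap, by a gap narrower than either group's range (change 0.40 ± 0.11, adjusted p = 0.0177), and the call was lost without compound 197 replicate 1, 2 or 4 (adjusted p = 0.053, 0.051 and 0.0573). Sec11a, the alternative catalytic subunit, changed by -0.25 and did not pass, and the within-array difference of Sec11c and Sec11a shifted by 0.65 with no overlap.

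**Figure D2:**
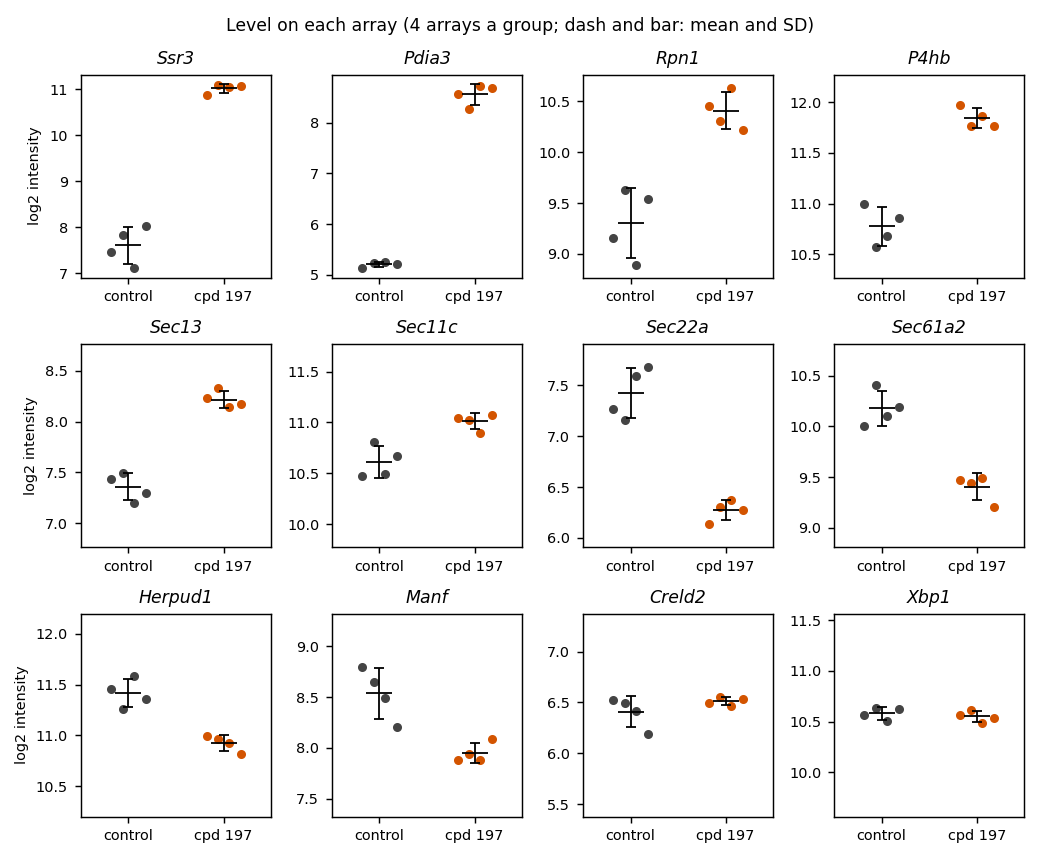
Log2 intensity of 12 member genes on each of the 8 arrays, control (grey) and compound 197 (orange), with the mean and SD of 4 arrays a group; the axes differ between panels and do not start at 0. The groups do not overlap for the 6 genes that rose or for Sec22a, Sec61a2, Herpud1 and Manf, and they overlap for Creld2 and Xbp1.

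N-glycosylation had 1 rise and 4 falls among 14 tested probes, with 9 that did not pass, and 2 of the 4 falls lay above 0 with scaling to the median of all probes. Rpn1, ribophorin I, a subunit of the oligosaccharyl transferase that hands client proteins to its active site, read 9.15, 9.62, 8.89 and 9.54 in controls and 10.46, 10.31, 10.64 and 10.22 with the compound. All 4 compound 197 arrays lay above the highest control. The change was 1.10 ± 0.18, or 2.15-fold (adjusted p = 0.0014), and it was called in all 8 leave-one-out fits.

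The other member genes of the same enzyme did not pass. Rpn2 changed by -0.22 (95% interval -0.51 to 0.08), Ddost by -0.01 (-0.26 to 0.23) and Stt3a, the catalytic subunit, by -0.03 (-0.38 to 0.32). Within each array, the difference between Rpn1 and the mean of these 3 shifted by 1.19 from control to compound 197, with no overlap.

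The Alg enzymes add sugars, one after another, to the dolichol carrier. Alg11, a mannosyltransferase on the cytosolic face, read 9.47, 9.84, 10.52 and 10.41 in controls and 9.10, 9.32, 9.16 and 9.14 with the compound. The controls spread widely (SD 0.49), the compound 197 arrays did not (SD 0.10), and all lay below the controls, with a change of -0.88 ± 0.22 (adjusted p = 0.0125). Alg10, a late glucosyltransferase, read 8.55, 8.87, 8.44 and 8.84 against 7.88, 8.29, 8.22 and 8.33, without overlap (change -0.49, adjusted p = 0.0253), and it lost its call in 4 of 8 leave-one-out fits. Alg5, which makes the dolichol-linked glucose donor, changed by -0.33 (adjusted p = 0.0418) and kept its call in 0 of 8. With scaling to the median of all probes the change was 0.10 for Alg10 and 0.23 for Alg5, while Alg11 stayed below 0 (-0.30).

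Alg6, the first glucosyltransferase, was the only member gene with a pair of tested probes, of which only the brighter passed. The brighter probe read 6.23, 6.38, 6.23 and 5.51 in controls and 5.67, 5.29, 5.56 and 5.41 with the compound, and passed as lower although the groups overlapped (change -0.60, adjusted p = 0.0334), with its call kept in 1 of 8 leave-one-out fits. The dimmer probe read 5.39, 5.67, 5.39 and 5.22 against 5.23, 5.42, 5.41 and 5.32, a change of -0.07 that did not pass. Alg1, Alg2, Alg8, Alg9 and Alg12 did not pass, with changes from -0.69 (Alg2) to 0.03 (Alg12).

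Folding factors had changes in both directions. Among 10 tested probes 2 rose, 2 fell and 6 did not pass, and 1 of the 2 falls lay above 0 with scaling to the median of all probes. Pdia3, also called ERp57, the disulfide isomerase that works with calnexin and calreticulin on glycoproteins, read 5.13, 5.23, 5.24 and 5.22 in controls and 8.56, 8.26, 8.73 and 8.67 with the compound. It was not well above background on any control array and was above it on all 4 compound 197 arrays, so only a bound can be given: at least 8.23-fold higher (adjusted p = 6.18e-08). It was called in the 4 fits that left out a control array and was not tested in the 4 others, where it fell short of the detection filter. The probe met that filter only through the compound 197 arrays, where it is high. Its p and its calls are therefore no separate support for the rise. For this bound the control level was taken, on each array, as the higher of the probe's own signal and the lowest signal of any probe above background. Raw intensity was 99.3 to 109 in controls and 354 to 551 with the compound.

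P4hb, the beta subunit of prolyl 4-hydroxylase and itself a protein disulfide isomerase, which collagen synthesis needs, read 10.998, 10.570, 10.681 and 10.859 in controls and 11.973, 11.767, 11.862 and 11.767 with the compound. Each compound 197 array lay above each control (change 1.06 ± 0.12, 2.09-fold, adjusted p = 0.000135). The remaining tested isomerases did not pass: Pdia4 gave -0.10, Pdia5 -0.34 and Pdia6 0.16. Pdia2 was above background on no array.

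The lectin chaperones that work with Pdia3 did not pass as higher. Canx, calnexin, the membrane-bound lectin, read 8.46, 8.56, 8.69 and 8.79 in controls and 8.25, 7.84, 8.12 and 8.15 with the compound. The groups did not overlap and the change was -0.53 ± 0.12 (adjusted p = 0.0089), but 0.05 with scaling to the median of all probes. Calr, calreticulin, its soluble counterpart, read 12.50, 12.56, 12.48 and 12.54 against 12.47, 12.36, 12.43 and 12.39. Its compound 197 arrays all lay just below the controls, and the change of -0.11 (95% interval -0.30 to 0.08) did not pass.

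Of the stress-linked members, Manf, Creld2, Sdf2l1, Herpud1 and Xbp1 did not pass as higher in the quantile-normalized values, while P4hb, described above, rose. Outside the members, the chaperones Hsp90b1 and Dnajb9 rose and Hspa5 and Dnajb11 passed as lower, as given below. Manf, a secreted protein induced by such stress, read 8.79, 8.65, 8.50 and 8.21 in controls and 7.88, 7.94, 7.88 and 8.09 with the compound. It passed as lower, without overlap (change -0.59 ± 0.14, adjusted p = 0.00898), and gave -0.01 with scaling to the median of all probes. Creld2, another secreted stress-induced factor, read 6.53, 6.50, 6.42 and 6.19 against 6.50, 6.55, 6.46 and 6.54. These groups overlapped and the change of 0.11 (95% interval -0.13 to 0.34) did not pass, although with cyclic loess and with scaling to the median of all probes it did (0.33 and 0.75).

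Sdf2l1, a partner of the chaperone Hspa5, read 5.33, 5.40, 5.31 and 5.50 in controls and 5.45, 5.48, 5.65 and 5.37 with the compound. The probe was above background on 0 control and 4 compound 197 arrays although its levels overlapped, and the change of 0.10 did not pass. Hyou1, a large chaperone of the Hspa5 system whose promoter stretch with 2 ERSE-II places is printed above, was above background on no array.

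Quality control was read through 3 tested probes, of which 2 fell, both above 0 with scaling to the median of all probes. Herpud1, which organises the degradation complex of the membrane and is a target of the stress sensors, read 11.452, 11.260, 11.581 and 11.362 in controls and 10.998, 10.963, 10.924 and 10.816 with the compound. All compound 197 arrays lay below the controls, and the change was -0.49 ± 0.10 (adjusted p = 0.00582) in the quantile-normalized values and 0.11 with scaling to the median of all probes. Sel1l, the adaptor of the same degradation complex, read 7.51, 8.12, 7.63 and 8.01 against 7.40, 7.22, 7.55 and 7.28. Its groups overlapped, its change of -0.45 (adjusted p = 0.0441) kept its call in 2 of 8 leave-one-out fits, and scaling to the median of all probes gave 0.17. Edem2, a mannosidase-like protein that marks misfolded glycoproteins, changed by -0.19 and did not pass, and Edem1 and Edem3 were above background on no array.

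Xbp1, the transcription factor made active when the sensor Ern1 splices its RNA, was the only stress regulator tested among the members. It read 10.57, 10.63, 10.50 and 10.62 in controls and 10.56, 10.62, 10.49 and 10.54 with the compound. The groups overlapped almost fully and the change was -0.03 (95% interval -0.23 to 0.17). A single probe level does not tell the spliced from the unspliced form. Atf6 was above background on no array.

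Across the 38 genes of the whole window table with ERSE or ERSE-II letters, 19 tested probes could be read, of which 2 rose, 5 fell and 12 did not pass (over all probes 16.3% rose and 24.1% fell). Of the 6 member genes with the letters, Canx and Herpud1 fell, Calr, Creld2 and Xbp1 did not pass, and Hyou1 was not tested. The 2 risers, neither a member, were Hsp90b1 and Hnrnpa3. A shorter motif, the UPRE core TGACGTG, was in the windows of Hyou1, Ssr4 and Sec23a and in 1.81% of all windows. A match is a run of letters and not a measured site.

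Vesicle transport out of the endoplasmic reticulum had 1 rise and 8 falls among 14 tested probes, with 5 that did not pass (over all probes 16.3% rose and 24.1% fell), and 7 of the 8 falls lay above 0 with scaling to the median of all probes. Sec13, which with Sec31 forms the outer cage of the coat protein complex II (COPII) and is also part of the nuclear pore, read 7.44, 7.50, 7.20 and 7.30 in controls and 8.23, 8.33, 8.14 and 8.17 with the compound. Each group was tight and the groups lay apart (change 0.86 ± 0.10, 1.81-fold, adjusted p = 0.000224). Its cage partner Sec31a changed by -0.26 (95% interval -0.72 to 0.20), and the within-array difference of Sec13 and Sec31a shifted by 1.12 with no overlap. The inner coat genes Sec23a and Sec24b gave 0.22 and 0.09 and did not pass. Sec23a passed as higher with cyclic loess (0.45, adjusted p = 0.0143) and with scaling to the median of all probes (0.87, adjusted p = 0.0121). Sec24a gave -0.30 and passed as lower (adjusted p = 0.0427), its call kept in 1 of 8 leave-one-out fits. With scaling to the median of all probes Sec24a gave 0.28.

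Sec22a, a homologue of the membrane fusion protein Sec22b, gave the largest fall of any member. It read 7.27, 7.16, 7.59 and 7.68 in controls and 6.13, 6.30, 6.37 and 6.28 with the compound, groups that lay well apart. The change was -1.16 ± 0.14, or 2.23-fold lower (adjusted p = 0.000192), and it ranged from -0.52 with scaling to the median of all probes to this value. Sec22b itself, a vesicle fusion protein of the SNARE family that acts between endoplasmic reticulum and Golgi, changed by -0.38 (adjusted p = 0.0269), with its call kept in 3 of 8 leave-one-out fits, and by 0.20 with scaling to the median of all probes. The within-array difference of Sec22a and Sec22b shifted by -0.78 with no overlap.

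The Tmed genes encode p24 cargo receptors, which cycle between endoplasmic reticulum and Golgi. Tmed4 read 10.37, 10.36, 10.23 and 10.24 in controls and 9.78, 9.75, 10.01 and 9.77 with the compound (change -0.47 ± 0.10, adjusted p = 0.00568). Tmed10 read 11.89, 12.29, 11.88 and 11.86 against 11.60, 11.39, 11.69 and 11.41 (change -0.46, adjusted p = 0.0217). Neither pair of groups overlapped. Tmed1 (-0.33), Tmed2 (-0.26) and Tmed9 (-0.36) also passed as lower, while Tmed3 (0.28) and Tmed5 (0.04) did not pass, and Tmed6 and the other probe of Tmed3 were above background on no array.

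All 5 Tmed falls lay above 0 with scaling to the median of all probes, from 0.11 to 0.33, and none passed relative to the median change. Tmed4 alone of the 5 kept its call in all 8 leave-one-out fits. The nuclear Ssrp1, in the list by its prefix, changed by 0.11 and did not pass.

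**Figure D3:**
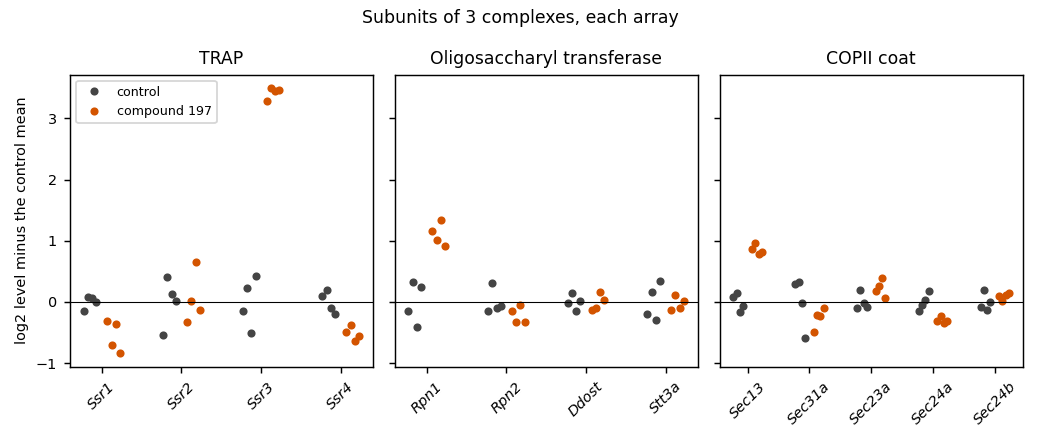
Level of each tested member subunit minus its own control mean, in log2 units, on each of the 8 arrays (grey control, orange compound 197), for the TRAP complex, the oligosaccharyl transferase and the COPII coat. One subunit of each complex lies clearly above its controls (Ssr3, Rpn1, Sec13), while the other member subunits overlap their controls or lie below them.

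Large rises on a single probe were found across the whole array. At least 2-fold rises came from 4 members, or 7.69% of those tested, and 8.87% of all probes did so; 1 member fell by that much against 2.55%. Of the 124 genes with exactly 2 tested probes, 27 probes had such a rise. Their partner probes on the same gene rose in 3 cases, fell in 6 and did not pass in 18, with a median partner change of -0.21. Over all probes 16.3% rose and 24.1% fell, with a median change of -0.18. Ssr3, Pdia3, Rpn1 and P4hb have no other tested probe, so this comparison could not be made for them.

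**Figure D4:**
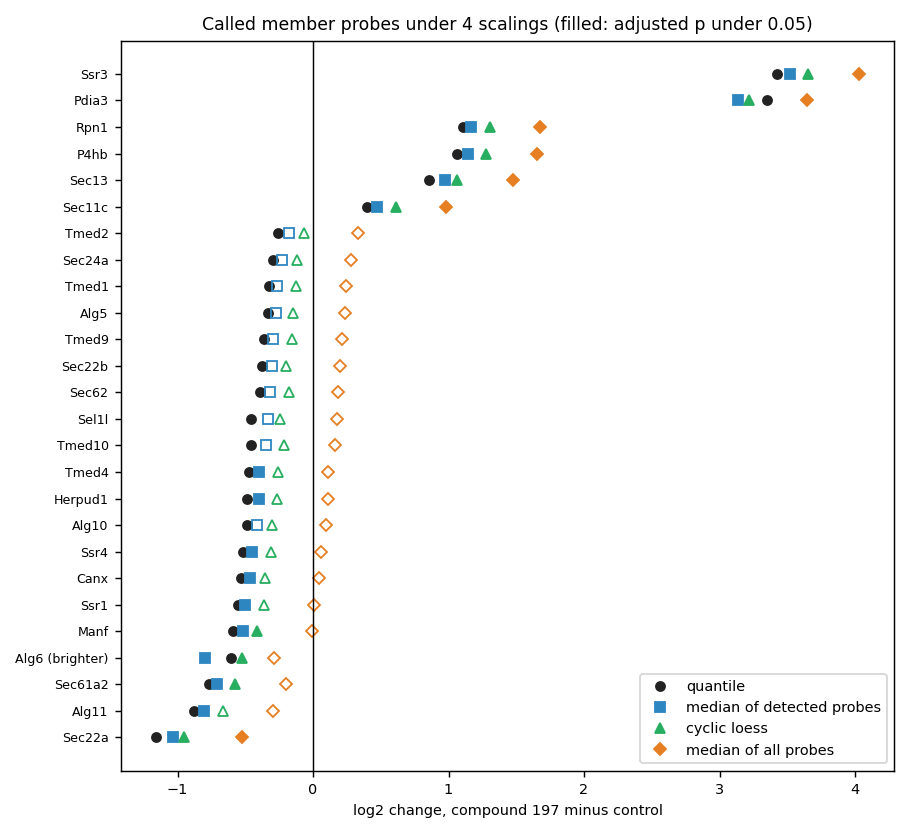
Log2 change of the 26 called member probes under 4 scalings of the arrays; filled marks passed at adjusted p under 0.05, open marks did not. The 6 rises are filled and above 0 in all 4, Sec22a is filled and below 0 in all 4, and 15 of the 20 falls lie above 0 with scaling to the median of all probes (orange).

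Genes of the same pathway outside the name rule were read from lists of chaperones and oxidases, stress signalling, degradation, targeting and oligosaccharyl transferase, and coats and cargo receptors. Of 66 tested probes 13 rose, 20 fell and 33 did not pass, with a median change of -0.25, where over all probes 16.3% rose and 24.1% fell with a median of -0.18. With scaling to the median of all probes 16 rose and 1 fell (background 23.2% and 1.91%), 14 of the 20 falls lying above 0, and with cyclic loess 17 rose and 7 fell (background 19.4% and 8.02%).

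Chaperones moved in both directions. Of 20 tested probes 4 rose and 5 fell (over all probes 16.3% and 24.1%). Among the risers, Ero1a was above background on 0 control and 4 compound 197 arrays. It met the detection filter only through the compound 197 arrays, so its call is no separate support. With scaling to the probes detected on all arrays it gave -0.11 and did not pass. Hsp90b1, the endoplasmic reticulum form of Hsp90, rose by 0.93 ± 0.13 (adjusted p = 0.000455), and Dnajb9, a co-chaperone of Hspa5, by 0.45 (adjusted p = 0.00913). Hspa5, the central chaperone BiP, passed as lower with a change of -0.25 (adjusted p = 0.0412) and gave 0.38 with scaling to the median of all probes, and its co-chaperone Dnajb11 passed with -0.49 and gave 0.10. Serpinh1, the collagen chaperone Hsp47, fell by 1.64 and stayed below 0 with every scaling, in contrast to the rise of P4hb, which acts on the same clients.

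Of 8 tested probes of stress signalling 2 fell (background 24.1%) and 6 did not pass, and 1 rose, Creb3 (0.68), with scaling to the median of all probes. Mbtps1, the protease that cuts Atf6 to its active form, passed as lower with a change of -0.91 and Eif2ak3, the sensor kinase PERK, with -0.63. With scaling to the median of all probes they gave -0.33 and -0.06 and neither passed, and Eif2ak3 did not pass with cyclic loess (adjusted p = 0.0945). Atf4, the transcription factor below Eif2ak3, gave 0.00 and Ddit3, the death-linked factor CHOP, -0.77, and neither passed (adjusted p = 0.115 for Ddit3). Trib3 was above background on no array.

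Rises read by 1 probe were also found outside the members (over all probes 16.3% rose and 24.1% fell, the shares to set beside each list). In degradation, where 1 probe rose and 2 fell of 7, Ufd1, a cofactor of the segregase Vcp, rose by 3.44. Its probe was above background on 2 control and 4 compound 197 arrays. Its control levels were 5.26 to 5.68, so this size rests on controls near background. In targeting and the transferase, where 2 rose and 7 fell of 15, Srp14, part of the signal recognition particle, rose by 1.14, and Srp54, not above background on any control array, passed as at least 1.07-fold higher but did not pass with scaling to the probes detected on all arrays (adjusted p = 0.27). Among coats and cargo receptors 6 rose and 4 fell of 16. Mcfd2, a cargo receptor subunit, and Bet1, a fusion protein, were not well above background on any control array. With the compound they were at least 5.18-fold and 4.95-fold higher. Srp54, Mcfd2 and Bet1 met the detection filter only through their compound 197 arrays, so their calls are no separate support. In the same list 1 probe of Copb1 rose by 0.57, while another probe of this gene gave -0.05 and did not pass. Dad1 and Krtcap2, 2 small transferase subunits, passed as lower (-0.60 and -0.48), beside the rise of Rpn1; with scaling to the median of all probes they gave -0.01 and 0.12.

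Markers of the labelled tissue were bright on every array: the muscle fibre genes Acta1, Ckm and Tnnt3 had group means of 15.36 to 15.77 on the log2 scale. Of 10 tested fibre markers 3 rose (Myh2, Myh4 and Tnni2) and 0 fell, where over all probes 16.3% rose and 24.1% fell. With scaling to the median of all probes 6 rose (background 23.2%), and with cyclic loess 3 (background 19.4%). The summed raw intensity of the 10 was 232404 to 272843 in controls and 299679 to 343440 with the compound, with no overlap. Fibroblasts secrete much collagen and hold much endoplasmic reticulum, and their 6 markers did not pass, with summed intensities of 23131 to 52392 against 16266 to 65661. Markers tested for endothelium (3), macrophages (3), adipocytes (2), Schwann cells (2), smooth muscle (1), red blood cells (2) and satellite cells (2) did not pass either. For B, plasma and T cells, Ms4a1, Mzb1 and Cd3d were above background on no array and Cd3e on 1. In whole muscle, fewer cells of a type and less RNA per cell cannot be told apart. The part of the 3 fibre marker rises in the changes of the members was not tested.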

How the data were processed

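Total RNA of 8 rat muscles was labelled with biotin and hybridised to 1-colour Illumina beadchips. The authors deposited 2 tables, one of non-normalized and one of normalized intensity values, each with detection p-values, per the file headers. Their scanning and normalization steps were not given in the sources used here. In the normalized table all 8 columns hold the same sorted values, and the series matrix equals it. The non-normalized intensities were background-corrected with limma's nec, using the detection p-values (offset 16), then quantile-normalized and put on the log2 scale. Probes with detection p under 0.05 on at least 4 of 8 arrays were compared with limma 3.58.1 in R 4.3.3 (lmFit, eBayes), with Benjamini-Hochberg adjustment over all 9873 probes. Leaving out 1 array leaves 3 in its group. The 13793 probes with 1 symbol were named through the platform annotation (13752 matched RefSeq by gene number; 0 member symbols changed), and 2572 tested probes have no symbol. RefSeq GRCr8 gave names and promoter windows; the windows of Manf, Pdia3, Pdia6, Alg11, Atf6, Sec61a1 and Sec61a2 were not used here. The fit was tested on simulated data. Figures used matplotlib 3.10.9.

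Members, roles and lists were chosen with earlier results of these data known. Values are given array by array for up to 4 members per role past the threshold with the smallest adjusted p, for the stress-linked members, for genes with several tested probes and for probes above background in 1 group; Sec11c and the within-array contrasts were added after values were seen. Same-numbered arrays did not deviate together (correlations -0.13 to -0.04), so replicate numbers were not treated as pairs. No cage, slide or scan was known or used; p-values measure the spread between 4 rats a group, and the number of arrays limits the precision. Alternatives were other background corrections, scalings, filters, thresholds and variance models, 1 probe per gene, each array left out, and a replicate block.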

Additional observations from a re-analysis of the deposited data

Results flagged for a closer look

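Among 104 groups of 4 arrays examined for the members, 4 held an array far from the others. Chance gives about 1 in 20, so this count is not above what chance gives. Sec62 read 10.48 on control replicate 4, below the next lowest of 10.54, and 10.31 on compound 197 replicate 3, above the next highest of 10.10. Tmed10 read 12.29 on control replicate 2 against 11.89 for the next array. Tmed4 read 10.01 on compound 197 replicate 3 against 9.78 for the next array. Both compound 197 values came from the same array. Without the array in question, Sec62 gave -0.41 (control 4 left out) and -0.45 (compound 197 3 left out), Tmed10 -0.36 and Tmed4 -0.53, and the 3 genes kept their calls as lower. Sec61g, the gamma subunit of the translocation channel, was above background on 2 compound 197 arrays and on 0 control arrays, and was outside the comparison because it did not reach 4 arrays.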

How the results depend on the processing

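The 6 rises among the members held their direction under every scaling, background correction and filter in which they were tested; Pdia3 could not be tested where detection on all 8 arrays was required. The 20 falls depended on the scaling. They numbered 1 with scaling to the median of all probes, where 9 members rose and the members' median change was 0.30; 11 with scaling to the probes detected on all arrays; 4 with cyclic loess; and 3 relative to the median change. Over all probes the number lower was 189, 1691, 792 and 826 in the same order, against 2382. Under scaling to the median of all probes these called falls changed sign: Sec62 0.19, Sec24a 0.28, Tmed1 0.24, Sec22b 0.20, Sel1l 0.17, Tmed10 0.16, Canx 0.045, Alg5 0.23, Ssr1 0.0086, Ssr4 0.060, Herpud1 0.11, Tmed2 0.33, Tmed4 0.11, Alg10 0.10 and Tmed9 0.21. Stricter thresholds left 7 member falls and 973 falls of all probes (adjusted p under 0.01), or 5 and 958 (1.5-fold). Where detection on all 8 arrays was required, 906 rose and 2290 fell of 7405 probes tested, and 5 rose and 19 fell of 46 members. With 1 probe per gene, 931 rose and 1756 fell of 7162, and 6 rose and 20 fell of 51 members. The main fit gave 1613 and 2382 of 9873. With the replicate number as a block, 6 members rose and 12 fell, and over all probes 1495 rose and 1734 fell; 0 of 8 arrays correlated best with their own number. Leaving out 1 array gave 4 to 6 member rises and 11 to 16 falls, (4 rises without compound 197 replicate 1, 2 or 4, where Pdia3 fell short of the filter and Sec11c of the test), medians from -0.27 to -0.15, and over all probes 1040 to 1630 rises (1040 to 1069 without any 1 compound 197 array) and 1531 to 2251 falls. At a detection p under 0.01, a limit chosen after seeing the data, the compound 197 arrays detected 4.5 more member probes on average (exact permutation p = 0.0857). The causes were not tested. A slide block was not run because no slide is named. Dim probes near background, such as Sdf2l1 and Alg6, carry the least information on change.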
